A study of Mus musculus with 6 samples.

Results

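Inflammasomes are cytosolic protein complexes in which a sensor recruits and activates an inflammatory caspase. The 9 genes described here are Naip2, Naip5, Naip6, Nlrp3, Nlrc4, Pycard, Casp1, Casp4 and Gsdmd, taken by their symbols from a table of 13839 genes, and all 9 were found. The members were chosen by name with their FPKM difference between the 2 groups already in view, so their levels and changes are given as a description, without a p-value. RNA came from MLL-ENL-ERtm, a single mouse line with the MLL-ENL fusion, classed in the labels as acute monocytic leukaemia. All cells had been transduced with a pGFP-V-RS retroviral hairpin, selected in puromycin at 1 µg/mL for 3 passages and adapted to SILAC medium. The hairpin was either directed against Tet1 (shTet1, 3 libraries) or a scrambled, non-specific one (shNS, 3 libraries). The comparison asks which transcripts differ after knockdown of Tet1, an enzyme that oxidises 5-methylcytosine.

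In mouse macrophages the pathway has several branches. NAIP proteins bind bacterial ligands, NAIP5 and NAIP6 flagellin and NAIP2 the inner rod of type III secretion systems, and then assemble with NLRC4. NLRP3 responds to disturbances such as potassium efflux and is kept scarce until inflammatory priming raises its transcription. The adaptor ASC, encoded by Pycard, links these sensors to caspase-1, which matures interleukin-1 beta and interleukin-18. Caspase-11, encoded by the mouse gene Casp4, binds lipopolysaccharide in the cytosol directly. Both caspases cleave gasdermin D (Gsdmd), whose freed part forms pores in the plasma membrane and causes pyroptosis.

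The Naip genes are near copies in one cluster on chromosome 13, and this bears on every Naip value below. Over the aligned bases of the longest coding transcripts of GENCODE (release for GRCm38), Naip5 and Naip6 were identical at 96.9%, Naip2 and Naip5 at 90.7% and Naip2 and Naip6 at 89.8%. Of all 51-base windows, the length of 1 read, 35.5% of those in Naip5, 20.9% in Naip6 and 18.9% in Naip2 occurred letter for letter in a transcript of another Naip gene. A window that no read could assign to 1 of the 3 genes is shown first, from exon 3 of Naip2 (chr13:100189210-100189260), exon 1 of Naip5 (chr13:100246011-100246061) and exon 2 of Naip6 (chr13:100316363-100316413), all coding and on the minus strand of GRCm38.
Naip2: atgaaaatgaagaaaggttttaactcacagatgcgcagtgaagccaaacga
Naip5: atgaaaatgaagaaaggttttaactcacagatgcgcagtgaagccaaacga
Naip6: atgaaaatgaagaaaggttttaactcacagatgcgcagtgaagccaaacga

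In the same exons lies the coding window in which the 3 genes differ most from each other, at chr13:100189307-100189357 in Naip2, chr13:100246108-100246158 in Naip5 and chr13:100316460-100316510 in Naip6. Capitals mark the 17 of 51 positions at which at least 1 of the 3 differs, so reads of this window tell the genes apart.
Naip2: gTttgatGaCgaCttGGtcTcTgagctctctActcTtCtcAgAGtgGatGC
Naip5: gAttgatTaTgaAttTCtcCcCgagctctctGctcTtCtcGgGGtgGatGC
Naip6: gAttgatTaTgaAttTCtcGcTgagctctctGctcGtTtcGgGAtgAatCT

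No window of Nlrp3, Casp1, Casp4 or Gsdmd occurred in a transcript of another gene on either strand. In Nlrc4 1.0% of windows did so on the same strand, and in Pycard 11.6% matched the opposite strand of Gm45205. The Pycard transcript used for this, of 3800 bases, is longer than the whole gene span given below. Its share may therefore not hold for the bases that were counted. The libraries were directional, but whether the counting used strand is not given in the sources used here. Reads shared between the Naip genes may have been split or dropped, so single Naip values are uncertain.

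The whole series is summarised first. The genes of the table held from 15873632 to 18592139 reads in a library. In FPKM, a read count scaled to gene length and library size, Tet1 had 0.489, 0.392 and 0.446 in the shNS libraries, in the order of their replicate numbers, as in all lists of values below. In the shTet1 libraries it had 0.0982, 0.155 and 0.139 FPKM. The shTet1 mean was 29.6% of the shNS mean, and the groups did not overlap (exact two-sided permutation test p = 0.1, the smallest that 3 against 3 allows). Its log2 change with limma-voom on the recovered reads was −1.77 (SE 0.23, adjusted p = 0.000328). All 10 monocyte and macrophage markers were higher in shTet1, their summed level going from between 3272 and 3783 FPKM to between 11007 and 16797 FPKM. Of 8 stem and progenitor markers tested, 7 were lower and 0 higher, with sums from 317 to 335 FPKM in shNS and from 146 to 173 FPKM in shTet1. Of 8 neutrophil markers tested, 2 were higher (Elane and Csf3r) and 4 lower (Mpo and the granule genes Ltf, Camp and Ngp). The sums overlapped, from 4424 to 5453 FPKM in shNS and from 3121 to 5430 FPKM in shTet1. Markers of other lineages were low: summed levels stayed at or below 5.85 FPKM for T and NK cells, 2.86 FPKM for B cells, 7.28 FPKM for dendritic cells and 3.17 FPKM for erythroid cells. Only 2 of 5 T and NK cell markers and 2 of 5 B cell markers were among the genes reported. The 2 T and NK cell markers and the 1 B cell marker tested were lower in shTet1, and the 2 dendritic markers tested did not pass. In bulk RNA, more cells expressing a gene and more RNA of it per cell cannot be told apart, and the part of the marker shift in the values below was not tested.

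All 9 inflammasome genes were higher in each shTet1 library than in any shNS library. Each was above 1 FPKM in every library, and each value rested on between 226 and 3200 reads. By limma with Benjamini-Hochberg adjustment over 11646 genes, 9 of 9 passed adjusted p 0.05 as higher, where 19.4% of all genes tested did so. The groups did not overlap, shTet1 being higher, for 22.6% of all genes tested. Since the members were chosen with this comparison known, nothing is read from those counts. The median log2 change of the members was 0.85, and that of all genes tested was −0.13. Every log2 change was computed on FPKM + 1, so that changes of low genes are understated.

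**Figure D1:**
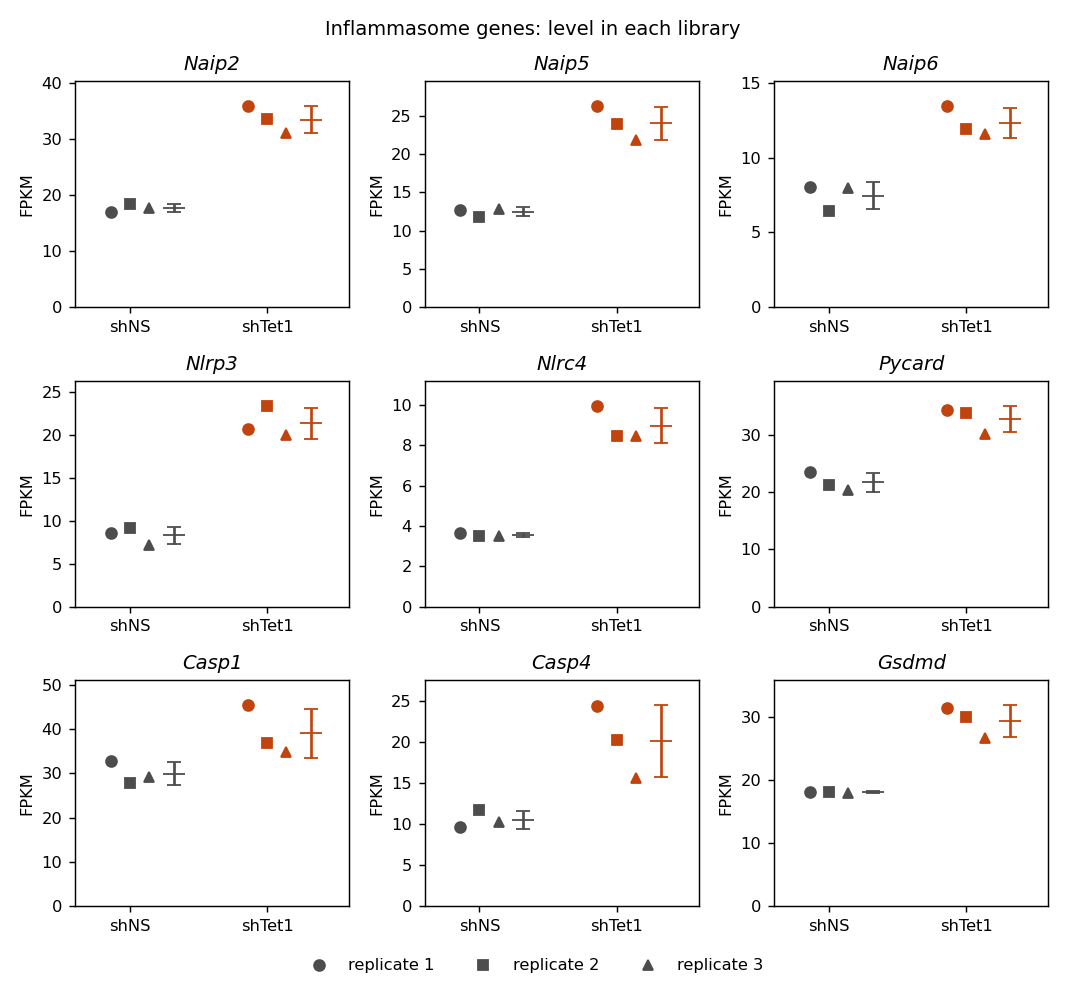
Level of each of the 9 genes in FPKM (vertical axis, from 0) in the 3 shNS and 3 shTet1 libraries; the marker shape gives the replicate number, and the bar beside the points gives the mean and SD of 3 libraries. In every panel the lowest shTet1 library lies above the highest shNS library, with the narrowest gap for Casp1, between 32.9 and 34.9 FPKM.

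Among the sensors, Naip2 (gene ID 17948, chr13:100144063-100202122, GRCm38) had the highest level. It stood at 17.01, 18.4 and 17.6 FPKM in shNS and at 35.8, 33.4 and 31.0 FPKM in shTet1. The groups were far apart, with means of 17.7 ± 0.684 and 33.4 ± 2.41 FPKM (SD, n = 3 each), with a log2 change of 0.88 (SE 0.08).

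Naip5 (gene ID 17951, chr13:100211735-100250930), the gene first mapped as the locus of resistance to Legionella, was at 12.7, 11.8 and 12.8 FPKM in shNS and at 26.2, 23.9 and 21.8 FPKM in shTet1. The shNS libraries lay close together while shTet1 replicate 3 was the lowest of its group. Its log2 change of 0.89 (SE 0.09) lay within 1 SE of that of Naip2.

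Naip6 (gene ID 17952, chr13:100281121-100316616), the second flagellin sensor, was at 8.001, 6.40 and 7.96 FPKM in shNS and at 13.4, 11.9 and 11.6 FPKM in shTet1. Replicate 2 was the low library in shNS, and the groups again did not overlap. The log2 change was 0.66 (SE 0.11), the smallest of the 3 Naip members.

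The summed level of Naip2, Naip5 and Naip6 went from 37.6 ± 0.933 to 69.7 ± 5.54 FPKM (SD, n = 3 each). Their proportions within the sum moved little: Naip2 made up 47.1 ± 2.79% in shNS and 47.9 ± 0.451% in shTet1, Naip5 33.1 ± 0.779% and 34.4 ± 0.424%, and Naip6 19.8 ± 2.01% and 17.7 ± 0.399%. The ranges of the groups overlapped for the shares of Naip2 and Naip6, and for Naip5 the shTet1 shares, from 33.9 to 34.8%, lay just above the shNS shares, from 32.3 to 33.7%. The part in these shares of reads that match several copies was not tested.

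Outside the 9 genes, Naip1, whose product senses the needle protein of type III secretion systems, rose from 4.67 ± 0.195 to 9.02 ± 0.872 FPKM (0.82 on the log2 scale, limma adjusted p = 0.000391). A row named Naip7 rose from 8.40 ± 1.07 to 14.1 ± 1.01 FPKM (log2 change 0.69, limma adjusted p = 0.00144), but its gene ID had no entry in the RefSeq annotation of GRCm38.p6. Its FPKM divided by that of Naip6 was 1.10, 1.12 and 1.15 in shNS and 1.14, 1.14 and 1.16 in shTet1. With a ratio that nearly constant, Naip7 and Naip6 cannot be treated as separate measurements.

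Nlrc4 (gene ID 268973, chr17:74426255-74459144), the partner that NAIP proteins activate, had the lowest level of the 9. It stood at 3.64, 3.49 and 3.49 FPKM in shNS and at 9.95, 8.45 and 8.45 FPKM in shTet1. The shNS libraries differed by less than 0.2 FPKM, and every shTet1 library was more than 2 times as high. The log2 change was 1.13 (SE 0.09), from a mean of 3.54 ± 0.0885 to one of 8.95 ± 0.864 FPKM (SD, n = 3 each).

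The level of Nlrc4 therefore differed by more than that of its partners. The 3 Naip members together were 10.4, 10.5 and 11.02 times the level of Nlrc4 in shNS and 7.58, 8.19 and 7.62 times in shTet1. These are ratios of FPKM within a library, so they do not depend on scaling between libraries.

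Nlrp3 (gene ID 216799, chr11:59541569-59566955) had the largest log2 change of the 9, 1.27 (SE 0.11), but the lead over Nlrc4 was small. Limma-voom, which adds no 1 FPKM, gave 1.36 for Nlrp3 and 1.33 for Nlrc4. Nlrp3 was at 8.61, 9.11 and 7.18 FPKM in shNS and at 20.7, 23.4 and 19.9 FPKM in shTet1. Replicate 3 was lowest in each group, and shTet1 replicate 2 was the highest of all 6, whereas for the other 8 genes the highest library was shTet1 replicate 1. The means were 8.30 ± 0.999 and 21.3 ± 1.80 FPKM, a ratio of 2.57, against 2.53 for Nlrc4.

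Pycard (gene ID 66824, chr7:127991373-127993867), the gene for the shared adaptor ASC, was at 23.6, 21.2 and 20.3 FPKM in shNS and at 34.4, 33.8 and 30.1 FPKM in shTet1. The groups did not overlap, with a log2 change of 0.57 (SE 0.09) and a ratio of means of 1.51. That change was below those of the sensors, but within 1 SE of that of Naip6 (0.66, SE 0.11). With a pseudocount of 5 FPKM the order was reversed, at 0.50 for Pycard and 0.48 for Naip6. Pycard divided by Nlrp3 was 2.74, 2.33 and 2.83 in shNS and 1.66, 1.45 and 1.51 in shTet1. The RNA of Pycard thus stood in a lower ratio to that of Nlrp3 in every knockdown library.

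Casp1 (gene ID 12362, chr9:5298517-5307281), the caspase that matures interleukin-1 beta, had the highest level of the 9 and the smallest change. It was at 32.9, 27.9 and 29.2 FPKM in shNS and at 45.4, 36.9 and 34.9 FPKM in shTet1. Replicate 1 was the highest library of both groups, and its highest shNS library lay close below its lowest shTet1 library. The log2 change was 0.37 (SE 0.12). Casp1 no longer passed the threshold without shNS replicate 2 (log2 change 0.32), shNS replicate 3 (0.35), shTet1 replicate 1 (0.26) or shTet1 replicate 2 (0.40), so its call depended on single libraries.

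Casp4 (gene ID 12363, chr9:5308849-5336791), the next gene on the same chromosome, was at 9.61, 11.7 and 10.3 FPKM in shNS and at 24.3, 20.3 and 15.6 FPKM in shTet1. The shTet1 libraries were spread over a wider range than for any other member relative to their mean, 20.1 ± 4.35 FPKM (SD, n = 3), against 10.5 ± 1.10 FPKM in shNS. The log2 change was 0.85 (SE 0.16). Casp1 divided by Casp4 was 3.42, 2.37 and 2.84 in shNS and 1.87, 1.82 and 2.24 in shTet1. The RNA of Casp4 was thus closer to the level of Casp1 RNA in the knockdown. The gap between the groups was narrow, from 2.24 in shTet1 to 2.37 in shNS.

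Gsdmd (gene ID 69146, chr15:75862144-75867408), the pore-forming substrate of both caspases, was at 18.1, 18.2 and 17.9 FPKM in shNS and at 31.5, 30.1 and 26.7 FPKM in shTet1. The shNS libraries were almost equal, with an SD of 0.146 FPKM around a mean of 18.1 FPKM. The log2 change was 0.67 (SE 0.09). Gsdmd divided by Casp1 was 0.550, 0.654 and 0.615 in shNS and 0.694, 0.816 and 0.764 in shTet1.

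**Figure D2:**
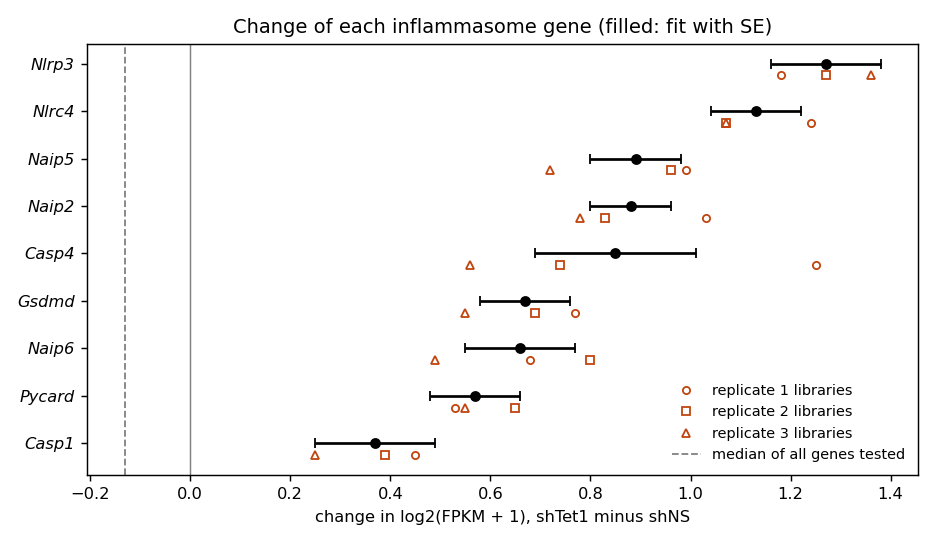
Change of each gene in log2(FPKM + 1), shTet1 minus shNS (horizontal axis); filled points with bars are the limma estimate and its standard error, and open markers are the differences between libraries of the same replicate number. The estimates run from 0.37 for Casp1 to 1.27 for Nlrp3, and all 27 open markers lie to the right of 0 and of the median of all genes tested, −0.13.

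In order of level in shNS, Casp1 (30.0 ± 2.62 FPKM) came first, followed by Pycard (21.7 ± 1.69), Gsdmd (18.1 ± 0.146), Naip2 (17.7 ± 0.684), Naip5 (12.5 ± 0.574), Casp4 (10.5 ± 1.10), Nlrp3 (8.30 ± 0.999), Naip6 (7.46 ± 0.913) and Nlrc4 (3.54 ± 0.0885). Among neighbours in that order, Gsdmd and Naip2, and Nlrp3 and Naip6, had overlapping ranges, and the other neighbours did not. In shTet1 the top 4 were Casp1 (39.1 ± 5.54), Naip2 (33.4 ± 2.41), Pycard (32.8 ± 2.33) and Gsdmd (29.4 ± 2.48), each overlapping the next. Naip5 (24.0 ± 2.19), Nlrp3 (21.3 ± 1.80) and Casp4 (20.1 ± 4.35) formed a second run of overlapping ranges, with Naip6 (12.3 ± 0.982) and Nlrc4 (8.95 ± 0.864) below. The order at the bottom was thus the same in both groups, while Naip2 reached the range of Pycard and Nlrp3 that of Naip5.

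Within the knockdown group the libraries were not alike. In all 9 genes the lowest shTet1 library was replicate 3, and in 8 of 9 the highest was replicate 1. On the first principal component of all tested genes, which held 79.5% of the variance, shTet1 replicate 3 scored 22.7 and the other shTet1 libraries 35.0 and 35.2, against −33.2 to −29.5 in shNS. The members thus went the way of the whole transcriptome in that library. The summed monocyte and macrophage markers were likewise lowest in it.

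**Figure D3:**
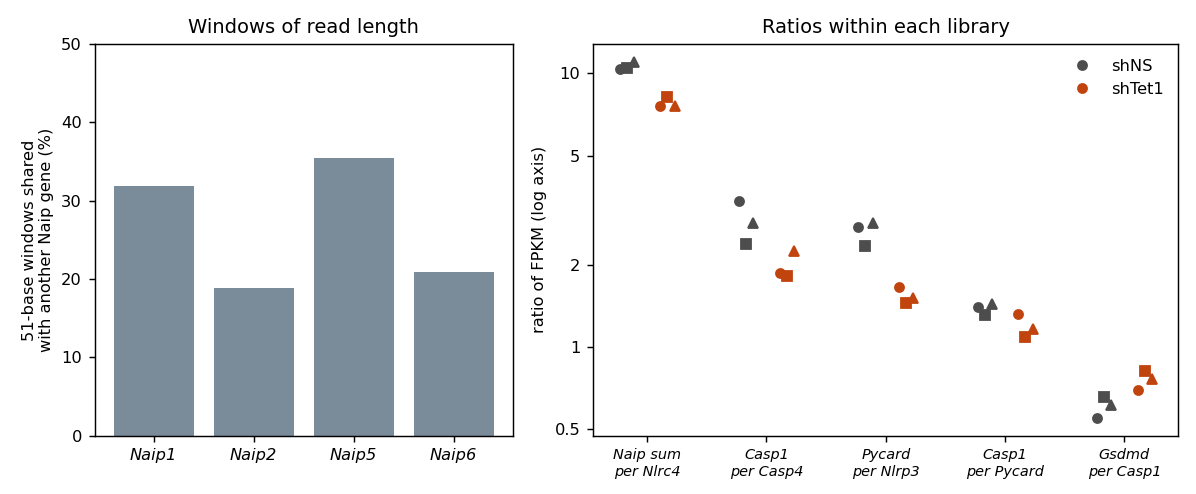
Left: percentage of 51-base windows of 4 Naip transcripts that also occur in another Naip gene (bars). Right: ratios of FPKM within each library (log axis), 3 shNS and 3 shTet1 libraries, with marker shapes for replicates 1 (circle), 2 (square) and 3 (triangle). Naip5 has the highest share at 35.5%, and of the 5 ratios plotted only Casp1 per Pycard has overlapping groups.

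The rest of the pathway was taken from 8 lists of 74 genes, of which 70 were in the table and 66 were tested. With limma and adjustment over all genes, 35 rose and 17 fell, where 19.4% of all genes tested rose and 33.7% fell. The median log2 change of the 66 genes was 0.30, against −0.13 for all genes tested. After median-of-ratios scaling 36 rose and 12 fell, against 24.9% and 23.6% of all genes, and without shNS replicate 3 the counts were 30 and 11.

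Of 8 other sensors tested, 6 rose and 1 fell (median log2 change 0.79). Without Naip7, which is not separate from Naip6, 5 of 7 rose and 1 fell, and over all lists 34 of 65 rose and 17 fell. Mefv, which encodes pyrin, an inflammasome sensor, rose from 2.60 ± 0.394 to 8.27 ± 2.05 FPKM (log2 change 1.35, limma adjusted p = 0.000553). The peptidoglycan sensor genes Nod1 and Nod2 rose by 0.82 and 0.95 on the log2 scale. The neighbouring paralogs Nlrp1a and Nlrp1b moved in opposite directions: Nlrp1b rose from 3.03 ± 0.152 to 5.82 ± 0.446 FPKM (0.76, limma adjusted p = 0.000473) and Nlrp1a fell from 7.59 ± 0.620 to 4.28 ± 0.736 FPKM (−0.71, limma adjusted p = 0.00195). Nlrp1a was named after its value was seen, as the sole sensor that fell. The DNA sensor gene Aim2 was at 17.7 ± 0.699 FPKM in shNS, like Naip2, and at 18.2 ± 1.47 FPKM in shTet1, a log2 change of 0.04 (SE 0.09, limma adjusted p = 0.716).

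The RNA of the cytokines that caspase-1 matures was higher too. Il1b stood at 87.5, 43.3 and 31.1 FPKM in shNS and at 340, 169 and 113 FPKM in shTet1, with replicate 1 the highest of each group (log2 change 1.91, SE 0.45, limma adjusted p = 0.00927). Il18 was at 3.29, 3.29 and 2.73 FPKM and at 17.6, 14.9 and 9.67 FPKM (1.84, SE 0.19, limma adjusted p = 0.000254). In the cytokine and gasdermin list 3 of 6 genes tested rose and 2 fell (median 0.58). Il1a was the other that rose (0.92). Those that fell were Ninj1, which ruptures the membrane after pore formation, from 46.2 ± 1.16 to 28.1 ± 2.002 FPKM (−0.70), and the chromatin protein and alarmin gene Hmgb1 (−0.91). Dfna5 (0.23), which encodes gasdermin E, did not pass (limma adjusted p = 0.119).

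**Figure D4:**
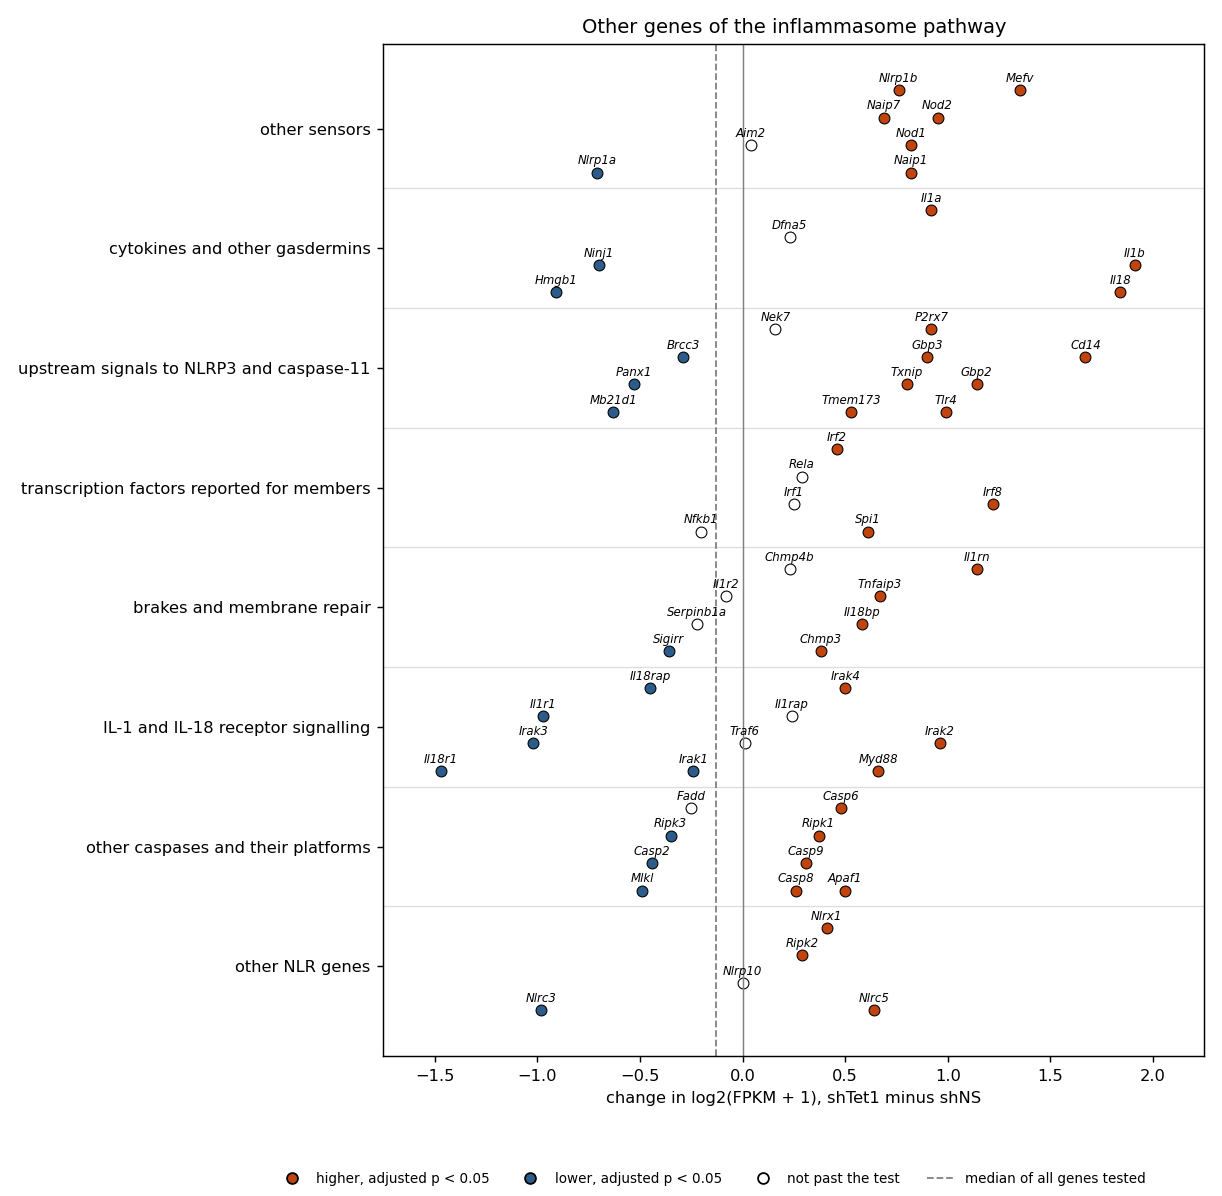
Change in log2(FPKM + 1), shTet1 minus shNS (horizontal axis), of most of the 66 tested genes in 8 pathway lists outside the 9 members (a few are not shown); orange points rose and blue points fell at limma adjusted p under 0.05, and white points did not pass. Il1b (1.91) lies farthest to the right and Il18r1 (−1.47) farthest to the left; vertical offsets within a list only separate the labels.

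Among upstream signals to NLRP3 and caspase-11, 7 of 11 genes tested rose and 3 fell (median 0.80). Cd14 and Tlr4, which encode parts of the cell surface receptor for lipopolysaccharide, rose by 1.67 and 0.99, and the guanylate-binding protein genes Gbp2 and Gbp3 by 1.14 and 0.90. The gene of the ATP-gated channel P2rx7 rose from 1.98 ± 0.253 to 4.64 ± 0.489 FPKM (0.92), whereas that of the pannexin channel, Panx1, fell from 14.0 ± 0.531 to 9.35 ± 0.547 FPKM (−0.53). Nek7, a kinase that binds NLRP3, was at 18.2 ± 0.133 and 20.5 ± 0.176 FPKM (0.16, limma adjusted p = 0.0898), a difference that passed with median-of-ratios scaling. The other genes that fell, named after their values were seen, were Mb21d1, which encodes the DNA sensor cGAS (−0.63), and Brcc3 (−0.29). Brcc3 did not pass with that scaling (limma adjusted p 0.143), nor when shNS replicate 1 (0.111) or 3 (0.0979), shTet1 replicate 2 (0.0956) or 3 (0.0564), or both replicate 1 libraries (0.0698) were left out.

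Among transcription factors reported to act on inflammasome genes, 4 of 7 rose and 0 fell (median 0.46). Irf8, reported in mouse macrophages to drive the Naip genes and Nlrc4, rose from 15.1 ± 1.05 to 36.6 ± 2.51 FPKM (1.22, SE 0.09, limma adjusted p = 6.4e-05). Irf2, reported to drive Gsdmd, rose from 15.9 ± 0.945 to 22.3 ± 2.89 FPKM (0.46, limma adjusted p = 0.00803). Spi1, which encodes the myeloid factor PU.1, rose from 133 ± 24.0 to 204 ± 43.1 FPKM (0.61, limma adjusted p = 0.0246). Spi1 did not pass when shNS replicate 1 (limma adjusted p 0.0707) or 3 (0.0607), or shTet1 replicate 2 (0.0935) or 3 (0.0728), was left out. The NF-kB subunit genes Nfkb1 and Rela had log2 changes of −0.20 and 0.29 (limma adjusted p 0.204 and 0.165). Rela passed in the fit with the replicate block (limma adjusted p 0.0135), without shTet1 replicate 1 (0.47, p 0.00983) and without both replicate 1 libraries (0.0128). With the block 6 of the 7 rose, since Irf1 also passed (0.25, limma adjusted p 0.0427). Calls of higher genes rose over all genes too with the block, from 2254 to 2692.

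Of 8 genes of brakes and membrane repair tested, 4 rose and 1 fell (median 0.30). Il1rn, which encodes the interleukin-1 receptor antagonist, and Il18bp, which encodes the interleukin-18 binding protein, rose by 1.14 and 0.58. The membrane repair gene Chmp3 rose by 0.38. Tnfaip3 rose by 0.67, a call that ended without shNS replicate 1 (limma adjusted p 0.0524). The gene that fell was Sigirr (−0.36), which did not pass after median-of-ratios scaling (limma adjusted p 0.119), nor without shNS replicates 1, 2 and 3 in turn (0.0918, 0.0535 and 0.0673) or shTet1 replicates 2 and 3 in turn (0.0712 and 0.0699). Serpinb1a and Chmp4b had log2 changes of −0.22 and 0.23 (limma adjusted p 0.218 and 0.146). Both passed with the replicate block (limma adjusted p 0.0328 and 0.0222) and without shTet1 replicate 1 (0.0394 and 0.0159), and Chmp4b also without both replicate 1 libraries (0.0293).

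On the receiving side, 3 of 10 genes of interleukin-1 and interleukin-18 receptor signalling rose and 5 fell (median −0.12, against −0.13 for all genes). The receptor gene Il18r1 fell from 5.53 ± 0.821 to 1.36 ± 0.227 FPKM (−1.47, limma adjusted p = 0.000109) and Il1r1 from 3.53 ± 0.210 to 1.31 ± 0.236 FPKM (−0.97, limma adjusted p = 0.000324), while the ligand genes Il18 and Il1b rose. Downstream, the adaptor gene Myd88 (0.66) and the kinase genes Irak2 (0.96) and Irak4 (0.50) rose. The inhibitory family member Irak3 fell (−1.02), from 1.67, 1.88 and 1.26 FPKM in shNS to 0.261, 0.340 and 0.233 FPKM in shTet1. Irak3 reached the filter of 1 FPKM in 3 libraries only through shNS, so it could enter the test only as a fall. Irak1 (−0.24, limma adjusted p = 0.0488), named after its value was seen, did not pass in 7 alternatives, among them median-of-ratios scaling (−0.11, p 0.321). Leaving out any 1 shNS library put Irak3 below the filter, and 3 of the 9 genes then tested were lower. Traf6 and Il1rap had log2 changes of 0.01 and 0.24 (limma adjusted p 0.948 and 0.2), and Il1rap passed without shTet1 replicate 1 (0.40, p 0.0228) or both replicate 1 libraries (0.0481).

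The remaining caspases and their platforms went both ways, with 5 of 11 genes tested higher and 4 lower (median 0.07). These counts were 3 and 2 without shNS replicate 3 or without shTet1 replicate 2, 3 and 3 without shNS replicate 2, and 5 and 2 after median-of-ratios scaling. The genes that lost a call in these fits were Casp2, Casp8, Casp9 and Ripk3. Apaf1, Casp6 and Ripk1 rose by 0.50, 0.48 and 0.37. Mlkl, the effector of necroptosis, fell from 18.1 ± 1.37 to 12.6 ± 0.219 FPKM (−0.49). Casp2 fell by 0.44 on the log2 scale, but did not pass after median-of-ratios scaling (limma adjusted p 0.0576), nor without shNS replicate 3 (0.0536) or shTet1 replicate 2 (0.0606). Fadd (−0.25) did not pass (limma adjusted p 0.121), except without shTet1 replicate 3 (−0.36, p 0.0267). Of 5 other NLR genes tested, 3 rose and 1 fell (median 0.29). Nlrc5 rose by 0.64, Nlrc3 fell by 0.98 on the log2 scale, and Nlrp10 was at 4.12 FPKM in both groups. With shNS replicate 3 left out, 1 of these 5 rose. Nlrx1 (0.41) did not pass without shNS replicate 3 (limma adjusted p 0.0592). Ripk2 (0.29) did not pass in 7 of the 14 alternatives, with adjusted p between 0.0588 and 0.141 there.

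The upstream sequences of the members were compared last, because most members were higher together. RefSeq start sites (GRCm38.p6) gave 10 windows of 250 bases for 8 members, with Nlrp3 and Casp4 having 2 starts each, and Gsdmd was not matched. The 2 windows of Casp4, chr9:5308599-5308848 and chr9:5308610-5308859, overlap almost wholly. Naip2 and Naip5 share more than their coding bases. The stretches below lie on the minus strand at chr13:100202128-100202211 for Naip2 and chr13:100247349-100247432 for Naip5, and capitals mark their longest identical run, of 34 bases, which begins 39 bases before the RefSeq start of Naip2 and 46 before that of Naip5. The Naip5 start used here is internal to the span given above, which extends farther upstream, to 100250930.
Naip2: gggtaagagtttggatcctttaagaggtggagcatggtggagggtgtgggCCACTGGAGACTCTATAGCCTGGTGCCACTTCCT
Naip5: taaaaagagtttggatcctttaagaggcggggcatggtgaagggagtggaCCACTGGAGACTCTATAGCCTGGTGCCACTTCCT

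The upstream window of Naip6 had no identical run longer than 8 bases with that of Naip2 and 6 with that of Naip5, although the coding bases of Naip5 and Naip6 are the closest pair. The log2 changes were 0.88 for Naip2, 0.89 for Naip5 and 0.66 for Naip6. Naip1, outside the members, shared runs of at most 11 bases with Naip2 and 14 with Naip5, and its log2 change was 0.82. With so few genes that is a description only, and whether the upstream sequences bear on the changes was not tested.

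Motifs were searched on both strands of the 250 bases. GAGGAA, a form of the PU.1 core, occurred in 3 of the 10 windows (of Nlrp3, Pycard and Casp1), against 23.3% of all 32851 promoter windows. The window before the downstream start of Nlrp3 (chr11:59542436-59542685, plus strand) held 3 of them, in capitals here.
Nlrp3: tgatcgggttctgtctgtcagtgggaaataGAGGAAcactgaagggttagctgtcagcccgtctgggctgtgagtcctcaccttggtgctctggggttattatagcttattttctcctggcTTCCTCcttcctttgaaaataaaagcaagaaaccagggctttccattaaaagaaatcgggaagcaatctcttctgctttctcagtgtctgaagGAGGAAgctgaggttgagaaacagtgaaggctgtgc
Pycard: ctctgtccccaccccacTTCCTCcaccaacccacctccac
Casp1: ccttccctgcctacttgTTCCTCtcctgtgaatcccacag

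The Pycard stretch is at chr7:127993887-127993926 on the minus strand, 42 bases before the start at its first capital, and the Casp1 stretch at chr9:5298392-5298431 on the plus strand, 108 bases before the start. The ETS-IRF composite, GGAA followed after any 2 bases by GAAA (2.3% of all windows), the ISRE core, GAAA spaced likewise from GAAA (3.0%), the AP-1 site TGACTCA (4.5%) and the STAT site TTCNNNGAA (7.0%) had 0 matches in the 10 windows. GAGGAA and the ETS-IRF composite can overlap in their GGAA. Other sites with GGAA were not searched, so a window without GAGGAA can still hold such a site. The run shared by Naip2 and Naip5 ends in TTCCT, which reads AGGAA on the other strand. The member windows held between 0 and 4 CpG dinucleotides, the substrate context of TET enzymes, whereas the median of all windows was 6 and 44.4% of windows had 4 or fewer. DNA methylation was not analysed here.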

How the data were processed

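RNA was sequenced from 3 shNS and 3 shTet1 libraries, grouped by sample title. The authors deposited 1 table of 13839 genes. Its 6 library columns were deposited without a unit and were taken, from their values, as FPKM, reads scaled to gene length and library size. Per the file headers the authors also deposited group means (a signal, reads per size factor), a fold change (a ratio), its log2 value, a p-value and an adjusted p-value, none of which is printed. The submitters' processing notes name GRCm38; no aligner or counter is given in the sources used here. The lowest deposited mean was 4.00 reads, so rarer genes were not analysed here.

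Whole reads were recovered from the FPKM for 100.0% of values within 0.001 read and used for depth and for limma-voom, without further scaling. The main test was limma 3.58.1 (R 4.3.3) with trend, two-sided, on log2(FPKM + 1) with group as the sole term. It covered the 11646 genes reaching 1 FPKM in 3 or more libraries, with Benjamini-Hochberg adjustment over all of them, and was tested on simulated data. Members and lists were chosen with earlier results of these data known. Named genes were all members, Tet1, the called genes of each list (up to 6 by smallest p), the 2 most expressed not called, and the 5 genes nearest to Pycard in profile; a few that the rule names are not reported here. Ratios, neighbours and transcript windows were chosen after values were seen. Errors are SD over 3 libraries; nothing in the labels says that these were separate cultures, so the spread may be technical. Transcripts were compared with Biopython 1.88. The protein comparison that had been planned was not made, since protein sequences were not used here.

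Libraries that share a replicate number deviated together from their groups (correlation across genes 0.61, 0.36 and 0.21 for replicates 1, 2 and 3). Unlike numbers gave −0.52 to 0.34, with shNS replicate 2 and shTet1 replicate 3 at 0.34, above the 0.21 of replicate 3. Since each same-numbered value was over 0.1, the numbers were taken as pairs and a fit with the replicate block was among the alternatives; genes are not independent replicates. The others were pseudocounts of 0.1 and 5 FPKM, no filter or 5 FPKM, median-of-ratios scaling, limma-voom on genes reaching 10 reads in 3 or more libraries, and leaving out each library or both replicate 1 libraries.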

Additional observations from a re-analysis of the deposited data

How the results depend on the processing

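Each of the 126 member changes recomputed under the 14 alternatives was above 0, with log2 changes from 0.26 (Casp1 without shTet1 replicate 1) to 1.39 (Nlrp3 with median-of-ratios scaling). All 9 members passed in 10 alternatives, the replicate block among them (9), and 8 passed in the 4 that ended the call of Casp1. Among all genes, from 1698 to 2895 were called higher in the alternatives, which with median-of-ratios scaling was 24.9% of those tested. The members were chosen with this comparison known, so nothing is read from these counts. Median-of-ratios scaling gave a member median of 0.98 (all genes −0.01), limma-voom 0.92 (all genes −0.15). The former moved the counts over all genes from 2254 higher and 3925 lower to 2895 and 2743. With the replicate block 38 pathway genes were higher and 18 lower. Over all genes the block gave 2692 higher and 4780 lower, so calls rose in general. The gains among pathway genes were Irf1, Rela, Chmp4b and Serpinb1a, and the block changed no other call of a pathway gene. Leaving out single libraries gave 30 to 37 pathway genes higher and 11 to 17 lower, and from 1698 to 2181 and from 2676 to 4007 among all genes. Of 908 pathway gene values recomputed, 848 kept their side of the threshold, 47 lost the call and 13 gained one. Among genes called in the main or the alternative fit, 0 reversed direction. Some genes called in neither fit changed sign, Aim2 and Il1r2 among them, and such values are counted in the 848. Another 16 values could not be tested because the gene was below the filter. Each member rested on at least 226 reads in each library, and the Naip values are further limited by reads that match several copies.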

Other observations

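The nearest protein-coding genes tested on each side of the members, a rule set after values were seen, did not as a group share the members' direction. Beside Nlrp3, Zkscan17 fell by 0.75 on the log2 scale and Mprip by 0.35 (limma adjusted p 0.000314 and 0.0148). Beside Nlrc4, Slc30a6 and Yipf4 had log2 changes of −0.20 and 0.11 (limma adjusted p 0.175 and 0.553). The motor neuron gene Smn1, 6364 bases from Naip2, fell from 28.3 ± 3.23 to 19.96 ± 4.59 FPKM (−0.50, limma adjusted p = 0.038). On one side of Pycard, 68773 bases away, the integrin gene Itgam rose from 119 ± 6.60 to 275 ± 34.2 FPKM (1.19, limma adjusted p = 0.000129). Casp1 and Casp4 lie 1568 bases apart, and the nearest genes tested outside the pair are far away: Msantd4, 911627 bases from Casp1, and Dync2h1, 1591759 bases from Casp4, had log2 changes of −0.12 and 0.00 (limma adjusted p 0.5 and 0.989). Beside Gsdmd, Zc3h3 (0.16) did not pass (limma adjusted p 0.194), and Eef1d, a translation elongation factor gene, fell (−0.49, limma adjusted p = 0.00228).

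The 5 tested genes whose profile over the 6 libraries lay nearest to that of Pycard were Vti1b, Gm15417, Coq10b, Tmem167 and Pold4, with root mean square differences of 0.025 to 0.039 on the log2(FPKM + 1) scale. Vti1b, a SNARE protein gene, went from 43.7 ± 3.29 to 66.1 ± 4.18 FPKM. Among the members, Gsdmd was nearest to Pycard (0.091, rank 133 of the genes tested) and Nlrp3 farthest (rank 5144). The 6 libraries form 2 groups that differ in many genes, so closeness in profile is a description only.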
